A study of Danio rerio with 12 samples.

Results

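The genes described here are the zebrafish paralogues of the colony stimulating factor 1 receptor, csf1ra (ENSDARG00000102986) and csf1rb (ENSDARG00000053624), and the genes of their ligands, csf1a (ENSDARG00000075343), csf1b (ENSDARG00000068263) and il34 (ENSDARG00000091003). They were chosen by name, as receptors and ligands of 1 pathway, and are 5 of 35117 gene IDs in the count table. All 5 were among the 16429 genes that passed the filter on low counts. RNA was sequenced from mpeg-GFP+ cells sorted from zebrafish embryos, to compare macrophages that lack functional Csf1r with wild-type macrophages at 28 and 50 h post-fertilisation (hpf). The 4 groups of 3 libraries were control at 28 hpf, csf1rDM at 28 hpf, control at 50 hpf and csf1rDM at 50 hpf. Control embryos were wildtype for both receptors and carried tg(mpeg-GFP). The csf1rDM embryos carried the same reporter and were homozygous for the alleles csf1raj4e1 and csf1rbre01, labelled csf1raj4e1/j4e1 and csf1rbre01/re01. The study gives the controls as carriers of reporter constructs only, with no statement that they shared parents with the mutants. Its methods name a further transgene in control animals, at shhb with an mCherry reporter, and do not say whether the mutants carried it. All embryos received phenylthiourea, which blocks melanin formation. A library came from 35 pooled embryos, and from 70 in the csf1rDM group at 50 hpf, so p-values measure the spread between pools.

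Csf1r is a receptor tyrosine kinase of the type III family, with Kit, Flt3 and the PDGF receptors as its relatives. In vertebrates it carries a signal by which most macrophages survive, divide and differentiate, and its ligands Csf1 and Il34 are made largely by the cells around them. The study reports that the first macrophages of zebrafish embryos arise, and at first divide, without it. Zebrafish have a pair of receptor genes. The csf1ra gene is also known from yellow pigment cells, the xanthophores, which need it to form and to migrate. The reporter promoter marks macrophages, and the sort does not by itself exclude other fluorescent cells.

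Library totals lay between 8641139 and 20261650 counts, and the log2 CPM of replicate libraries correlated across genes with Pearson r from 0.919 to 0.983 (genes are not independent replicates). The summed level of 26 macrophage marker IDs lay between 20290 and 31817 CPM (counts relative to library size, adjusted by TMM), above the sums of all 10 other marker lists, of which neutrophil markers reached 1882 CPM and skeletal muscle markers 6.27 to 3398 CPM. At 28 hpf the muscle sums were 9.9, 13.1 and 8.93 CPM in control against 79.7, 549 and 2177 CPM in csf1rDM. At 50 hpf the genotypes overlapped, at 2814, 2540 and 6.27 CPM in control and 10.5, 8.92 and 3398 CPM in csf1rDM. The part of such cells in the levels of other genes was not tested. The macrophage sums did not overlap between genotypes. They were 26176 to 27163 CPM in control against 30964 to 31817 CPM in csf1rDM at 28 hpf, and 20290 to 22600 CPM in control against 25382 to 29591 CPM in csf1rDM at 50 hpf. The csf1rDM 50 hpf replicate 1 library stood apart with 26548 genes detected, against 17502 to 22369 in the others.

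Both receptors were well covered in every library. In control at 28 hpf the csf1ra level was 227, 235 and 214 CPM, and in csf1rDM at 28 hpf it was 239, 301 and 273 CPM. In control at 50 hpf it was 445, 350 and 416 CPM, and in csf1rDM at 50 hpf it was 339, 405 and 399 CPM. The mutant libraries lay above the control libraries at 28 hpf, the lowest by a small margin, and the genotypes overlapped at 50 hpf. For csf1rb the levels were 135, 136 and 161 CPM in control against 61.4, 92.2 and 97.8 CPM in csf1rDM at 28 hpf. At 50 hpf they were 441, 257 and 295 CPM in control and 193, 153 and 214 CPM in csf1rDM. The csf1rb level was thus lower in each csf1rDM library than in any control library of its stage. Control 50 hpf replicate 1 lay far above the other controls. How many of all tested genes separate in this way is not given here. Such a lack of overlap, for csf1rb and for genes named below, is therefore not read as unusual.

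**Figure D1:**
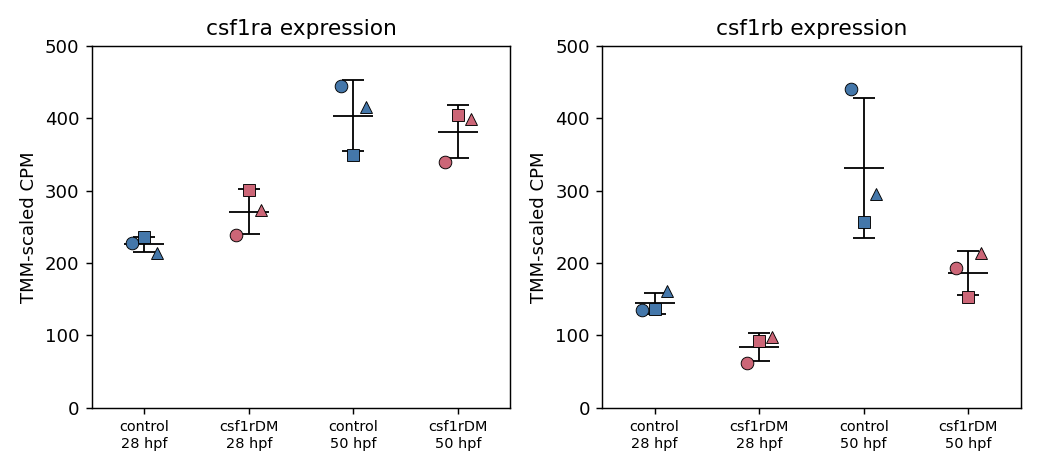
TMM-scaled CPM of csf1ra (left) and csf1rb (right) in each library, by group. Circles, squares and triangles are replicates 1, 2 and 3, blue is control, red is csf1rDM, and bars give the mean and SD of 3 libraries. For csf1ra the genotypes overlap at 50 hpf, whereas for csf1rb they are apart at both stages.

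In bulk samples, fewer cells of a type and less RNA per cell cannot be told apart, and levels of csf1ra and csf1rb are not set against each other here because transcript lengths were not used. In csf1rDM both receptor genes carry the mutant alleles. An allele's effect on its own transcript and an effect of receptor loss are confounded in this design, and neither was tested. A gene was called where the adjusted p was under 0.01 and the log2 fold change beyond 1 in either direction, in edgeR's quasi-likelihood test, adjusted over all tested genes by Benjamini-Hochberg. By this rule 4.08% of tested genes were called between genotypes at 28 hpf and 5.33% at 50 hpf, and 0 of the 5 genes were called at either stage. For csf1ra the 28 hpf difference of 0.26 on the log2 scale had an unadjusted p = 0.0309 and an edgeR adjusted p = 0.107. For csf1rb the log2 differences of -0.78 and -0.83 had edgeR adjusted p = 0.0203 and 0.014, so they would pass at an adjusted p of 0.05 with no limit on the fold, as 20.5% and 19.9% of all tested genes did. At an unadjusted p under 0.05 the edgeR test takes in 3 of the 5 genes at 28 hpf (csf1ra, csf1rb and il34) and 1 at 50 hpf (csf1rb), beside 33.5% and 32.1% of all tested genes. DESeq2, at an adjusted p under 0.01 with the fold limit, called 0 of the 5 genes at either stage. At 28 hpf, left-out libraries apart, DESeq2 and the other alternatives gave csf1rb log2 differences of -0.79 to -0.77. At 50 hpf they gave -0.87 to -0.77, so csf1rb stayed under the fold limit there whatever its adjusted p. Leaving out control 50 hpf replicate 2 brought csf1rb past the thresholds at 50 hpf, with a log2 fold change of -1.01 and an edgeR adjusted p = 0.00878.

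Both receptor transcripts were more abundant at 50 hpf than at 28 hpf. The csf1rb level rose 2.29-fold in control (1.20 on the log2 scale, SE 0.211, edgeR adjusted p = 0.00117) and 2.22-fold in csf1rDM (1.15, SE 0.212, edgeR adjusted p = 0.00141), in both cases past the thresholds, with no overlap between stages. Of all tested genes 6.29% were called between stages in control and 8.24% in csf1rDM, so csf1rb was 1 of 1033 and 1 of 1353 genes respectively. Its call in control was lost without control 50 hpf replicate 1 (log2 fold change 0.91, edgeR adjusted p = 0.00571), and its call in csf1rDM without csf1rDM 28 hpf replicate 1 (0.97, edgeR adjusted p = 0.00695), in each case because the fold fell under the limit. For csf1ra the log2 change with stage was 0.84 in control (SE 0.109, edgeR adjusted p = 0.000122) and 0.49 in csf1rDM (SE 0.109, edgeR adjusted p = 0.0047). The csf1ra stages did not overlap in either genotype, but the changes lay under the fold limit and were not called.

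The question whether the stage change differed between genotypes was tested as an interaction, by which 0.158% of tested genes were called. The interaction was -0.35 for csf1ra (SE 0.154, edgeR adjusted p = 0.363) and -0.05 for csf1rb (SE 0.296, edgeR adjusted p = 0.98) on the log2 scale. Neither was called, and with these errors a moderate difference in the csf1rb stage change would not have been detected.

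The sum of both receptors was next compared, since changes of opposite sign in paralogues can leave a total in place. At 28 hpf the summed level was 370 ± 6.64 CPM in control against 355 ± 48.1 CPM in csf1rDM, and at 50 hpf it was 735 ± 141 CPM in control against 567 ± 41.4 CPM in csf1rDM (SD, n = 3 each). With genotype permuted within stage the mean log2 difference was -0.21 (exact permutation test, two-sided, p = 0.085). Between stages the sum rose 1.78-fold (log2 difference 0.83, exact permutation test within genotype, two-sided, p = 0.005, the smallest that 400 permutations can give). The genotype difference in the sum therefore did not reach a p under 0.05 in this exact permutation test. Leaving out csf1rDM 28 hpf replicate 2, csf1rDM 28 hpf replicate 3 or control 50 hpf replicate 2 changed this. The same exact test then gave p = 0.02, 0.045 and 0.04, with log2 differences of -0.26, -0.27 and -0.30.

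The balance of the paralogues differed between genotypes at both stages. The ratio of csf1rb to csf1ra counts does not depend on how a library is scaled, and only its change is read, since the level of the ratio depends on transcript length. In control at 28 hpf the ratio was 0.595, 0.58 and 0.752, and in csf1rDM at 28 hpf it was 0.257, 0.306 and 0.359. In control at 50 hpf it was 0.991, 0.735 and 0.709, and in csf1rDM at 50 hpf it was 0.568, 0.377 and 0.535. Every mutant library lay below every control library, at the same stage and across stages. Both genes are those mutated in csf1rDM, and the part of the alleles themselves in this difference was not tested.

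**Figure D2:**
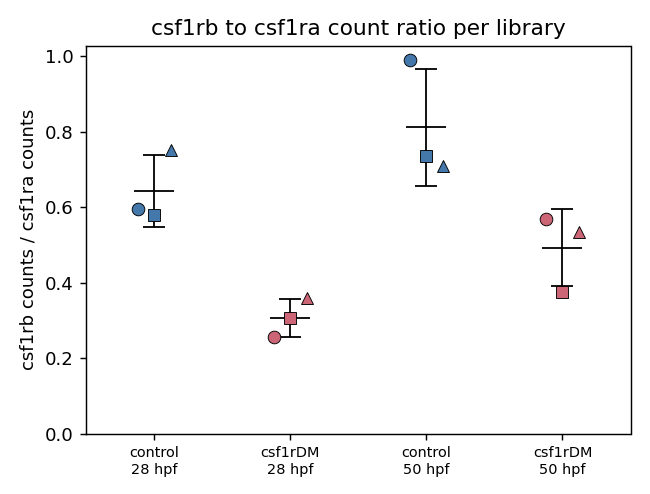
Ratio of csf1rb counts to csf1ra counts in each library, by group, on a linear axis from 0. Circles, squares and triangles are replicates 1, 2 and 3, and bars give the mean and SD of 3 libraries. The 6 csf1rDM libraries lie between 0.257 and 0.568, and the 6 control libraries between 0.58 and 0.991.

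As a share, csf1rb made up 39 ± 3.44% of the counts of both receptors in control and 23.4 ± 2.99% in csf1rDM at 28 hpf, and 44.5 ± 4.55% in control and 32.8 ± 4.77% in csf1rDM at 50 hpf (SD, n = 3 each). The lowest library, csf1rDM 28 hpf replicate 1, had 506 csf1rb and 1971 csf1ra counts, a share of 20.4% with an exact Clopper-Pearson 95% interval of 18.9 to 22.1%. The highest, control 50 hpf replicate 1, had 7057 and 7120 counts, a share of 49.8% with an interval of 49 to 50.6%. Amplified reads without molecular identifiers are not independent molecules, so such intervals cover counting error only, and the spread between pools was wider than they are.

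To set the shift beside those of other pairs, the same log2 ratio was computed for all 292 pairs of tested genes whose symbols differ only in a final a or b, not all of which are paralogues (cyba and cybb, for example, encode unlike subunits), with limma and adjustment over the pairs, and called at an adjusted p under 0.05. At 28 hpf the csf1rb to csf1ra ratio fell by 1.07 on the log2 scale in csf1rDM, to 0.478 of control (95% interval of the log2 difference -1.44 to -0.69, limma adjusted p = 0.00053). At 50 hpf it fell by 0.72, to 0.605 of control (-1.10 to -0.35, limma adjusted p = 0.00894). Of the pairs, 14% were called at 28 hpf and 18.8% at 50 hpf, in either direction. The receptor pair was 1 of 25 pairs called at both stages with the same sign. Of the 292 pairs, 101 had ratios that did not overlap between genotypes at 28 hpf, and 109 at 50 hpf. In 17.1% of pairs the ratios did not overlap at both stages in the same direction. A larger difference in either direction was seen in 29.1% of pairs at 28 hpf and in 43.2% at 50 hpf. The shift of the receptor pair was thus exceeded in size by many other pairs, which were counted whether or not they were called. The call at 50 hpf was lost without control 50 hpf replicate 1, the library with the highest ratio (log2 difference -0.57, limma adjusted p = 0.0522), in limma with no trend (adjusted p = 0.0567) and in edgeR's diffSpliceDGE (adjusted p = 0.0778).

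**Figure D3:**
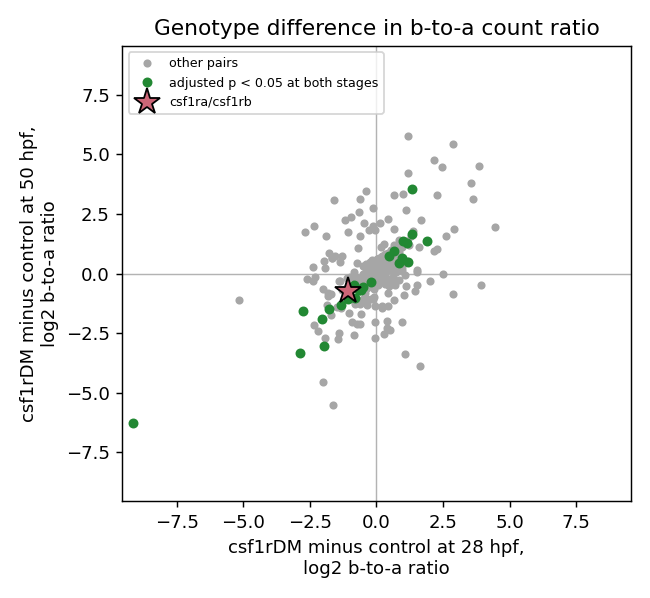
Difference between csf1rDM and control in the log2 b-to-a count ratio at 28 hpf (horizontal) and at 50 hpf (vertical), 1 point for each of 292 pairs with such symbols. Green points have an adjusted p under 0.05 at both stages, and the star marks csf1ra/csf1rb at -1.07 and -0.72, inside the cloud of the other pairs.

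Taken over both stages in a test of this value alone, the genotype difference in the log2 ratio was -0.90 (exact permutation test with genotype permuted within stage, two-sided, p = 0.005, the smallest possible of 400 permutations). This p follows from the lack of overlap at both stages already described, which 17.1% of the 292 pairs also showed in 1 direction. It is therefore not separate support. The ratio was lower in 6 of 6 mutant libraries than in any control library. The genotype difference stayed between -0.95 and -0.80 as each library was left out. Within 1 stage, 3 against 3 libraries allow no exact p below 0.1, and that value was reached at each stage.

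The ratio was also compared between stages. From 28 to 50 hpf it rose by 0.67 on the log2 scale in csf1rDM (95% interval 0.30 to 1.05, limma adjusted p = 0.00936), where 26% of pairs were called, and by 0.33 in control (-0.04 to 0.71, limma adjusted p = 0.215), where 22.6% of pairs were called. The csf1rDM stages did not overlap, and the control stages did, but the csf1rDM call was lost in limma with no trend (adjusted p = 0.0629) and in edgeR's diffSpliceDGE (adjusted p = 0.0732). The rise was not shown to differ between genotypes: the interaction was 0.34 (-0.19 to 0.87, limma adjusted p = 0.537), and 0.685% of pairs were called for it. With stage permuted within genotype the mean rise was 0.50 (exact permutation test, two-sided, p = 0.02). Reads that fit both paralogues could have been split or dropped in counting, and whether this was so was not tested.

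Because csf1ra is also a gene of xanthophores, markers of that lineage were read beside it. The summed level of 8 xanthophore marker IDs was 17.4, 44.1 and 121 CPM in control against 80.9, 13.98 and 11.6 CPM in csf1rDM at 28 hpf. At 50 hpf the sums were 111, 52.5 and 103 CPM in control and 36.1, 17 and 15.3 CPM in csf1rDM. The genotypes overlapped at 28 hpf and not at 50 hpf, where the mutants were lower. The sum was led in some libraries by gch2, whose product acts in pteridine synthesis, and in others by scarb1, of carotenoid uptake. In control at 28 hpf gch2 held 47, 467 and 1552 counts, and csf1ra was at 227, 235 and 214 CPM in the same libraries. At 50 hpf gch2 showed a log2 difference of -3.66, with 624 to 1179 counts in control and 19 to 91 in csf1rDM, and was not called (edgeR adjusted p = 0.0417). The markers xdh and aox5, of purine and pteridine oxidation, were at 0 in at least 1 csf1rDM library of each stage, xdh was also at 0 in control 28 hpf replicate 1, and slc2a15b was highest in csf1rDM 50 hpf replicate 1 with 46 counts. No xanthophore marker was at 0 in all libraries, and the part of such cells in the csf1ra level was not tested.

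The ligand transcripts gave few reads, csf1a and csf1b close to the limit of detection and il34 above it in most libraries, so raw counts are given. Csf1a and Csf1b are the zebrafish counterparts of the growth factor Csf1, and Il34 is the second ligand of the receptor, known in mammals from neurons and skin. Counting more than 3 reads as detected, csf1a was detected in 10, csf1b in 5 and il34 in 11 of 12 libraries. Over all libraries they had 174, 107 and 486 counts, against 55189 for csf1ra and 33532 for csf1rb.

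The csf1a counts were 3, 26 and 4 in control and 12, 17 and 19 in csf1rDM at 28 hpf. At 50 hpf they were 27, 8 and 1 in control and 42, 7 and 8 in csf1rDM. Replicates of a group differed more than counting error allows: in control at 50 hpf the exact Poisson 95% interval was 17.8 to 39.3 for 27 counts and 0.0253 to 5.57 for 1 count. The log2 difference between genotypes was 0.78 at 28 hpf (SE 1.11, edgeR adjusted p = 0.671) and 1.18 at 50 hpf (SE 1.11, edgeR adjusted p = 0.52). At 28 hpf it was 2.39 without control replicate 2, 0.34 without control replicate 1 and 0.36 without control replicate 3. At 50 hpf it rested on csf1rDM replicate 1, the library with the most genes detected, and was -0.29 without it.

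The csf1b counts were 2, 11 and 1 in control and 2, 17 and 0 in csf1rDM at 28 hpf. At 50 hpf they were 15, 33 and 0 in control and 26, 0 and 0 in csf1rDM. Libraries of every group thus held either at least 11 counts or at most 2, and libraries with signal stood beside replicates with none. A count of 0 allows up to 3 counts by the one-sided limit used as the floor here, a level of 0.214 CPM in csf1rDM 28 hpf replicate 3 and between 0.192 and 0.241 CPM in the 50 hpf libraries at 0. The genotype differences were 0.53 at 28 hpf (SE 1.82, edgeR adjusted p = 0.877) and -0.16 at 50 hpf (SE 1.73, edgeR adjusted p = 0.963) on the log2 scale. Errors of this size leave the direction of csf1b unknown, and differences of several-fold either way would not have been detected.

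The il34 counts were 87, 158 and 43 in control and 4, 24 and 38 in csf1rDM at 28 hpf. At 50 hpf they were 29, 34 and 22 in control and 21, 0 and 26 in csf1rDM. Control libraries at 28 hpf were the highest in counts, and as CPM they held 6.89, 10.9 and 2.67 against 0.486, 1.62 and 2.71 in csf1rDM, where replicate 3 reached the lowest control. The log2 difference between genotypes was -2.05 at 28 hpf (SE 0.886, unadjusted p = 0.0386, edgeR adjusted p = 0.125) and -0.36 at 50 hpf (SE 0.892, edgeR adjusted p = 0.831). Neither was called.

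Between stages il34 was lower at 50 hpf in control by 2.07 on the log2 scale (SE 0.880, edgeR adjusted p = 0.113), with no overlap between stages in CPM. In a fit of those 6 libraries alone the difference was -2.06 and passed (edgeR adjusted p = 0.00499), so the call depends on which libraries estimate the spread. In csf1rDM the stage difference was -0.38 (SE 0.900, edgeR adjusted p = 0.799). The summed level of 11 keratinocyte marker IDs was 474 to 733 CPM in control against 723 to 1206 CPM in csf1rDM at 28 hpf, and the sum of 7 neural marker IDs was 14.4 to 15.6 CPM and 9.91 to 34.8 CPM. Among the keratinocyte markers krt8 had the highest mean over the 12 libraries, at 427 CPM, and krt4 was next at 66.8 CPM. The part of such cells in the ligand counts was not tested. For all 3 ligands the interaction was not called (edgeR adjusted p = 0.965 for csf1a, 0.963 for csf1b and 0.647 for il34).

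**Figure D4:**
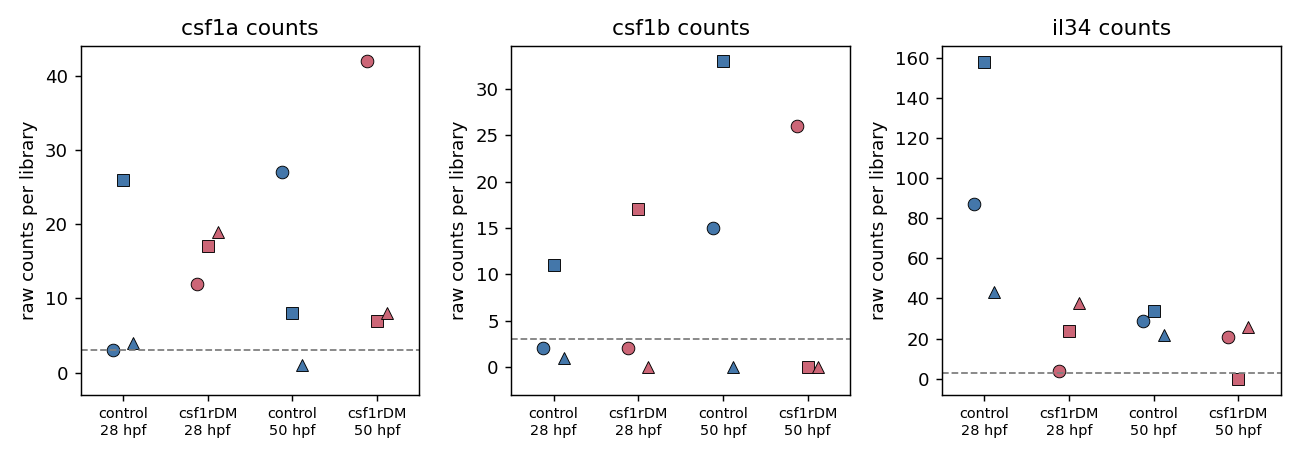
Raw counts of csf1a, csf1b and il34 in each library, by group, each panel on its own linear axis. Circles, squares and triangles are replicates 1, 2 and 3, and the dashed line marks 3 counts. Replicates of a group lie on both sides of the line for csf1b in every group, and il34 is highest in control at 28 hpf.

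The genes around the receptor were then read from 8 lists written from general knowledge: related receptors and ligands, adaptors, cytoplasmic kinases, the Ras, MAPK and AKT cascade, STAT factors and negative regulators. Of these lists 79 genes were tested. At 28 hpf 5 of 79 were called (6.33%, 1 higher and 4 lower in csf1rDM), beside 4.08% of all tested genes, and at 50 hpf 6 of 79 (7.59%, 4 higher and 2 lower), beside 5.33%. Between stages 5 of 79 were called higher at 50 hpf in control, beside 4.29% of all tested genes, and 9 of 79 in csf1rDM, beside 4.7%, and 0 were called lower. With no fold limit and an adjusted p under 0.05 the counts between stages were 25 and 34 of 79, beside 23.4% and 27.6% of all tested genes. Between genotypes those looser counts were 25 of 79 at 28 hpf and 22 of 79 at 50 hpf. They are larger shares than the 20.5% and 19.9% of all tested genes. The share called between genotypes was thus above that of all tested genes under both rules, by few genes under the stricter one, and no set test was run on it. Without control 28 hpf replicate 2 or replicate 3 the stricter count at 28 hpf fell to 3 of 79. The genes of the lists and all tested genes were not matched for expression level, so the shares are not read as a result about the lists. The called genes are named in the next paragraphs by role.

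**Figure D5:**
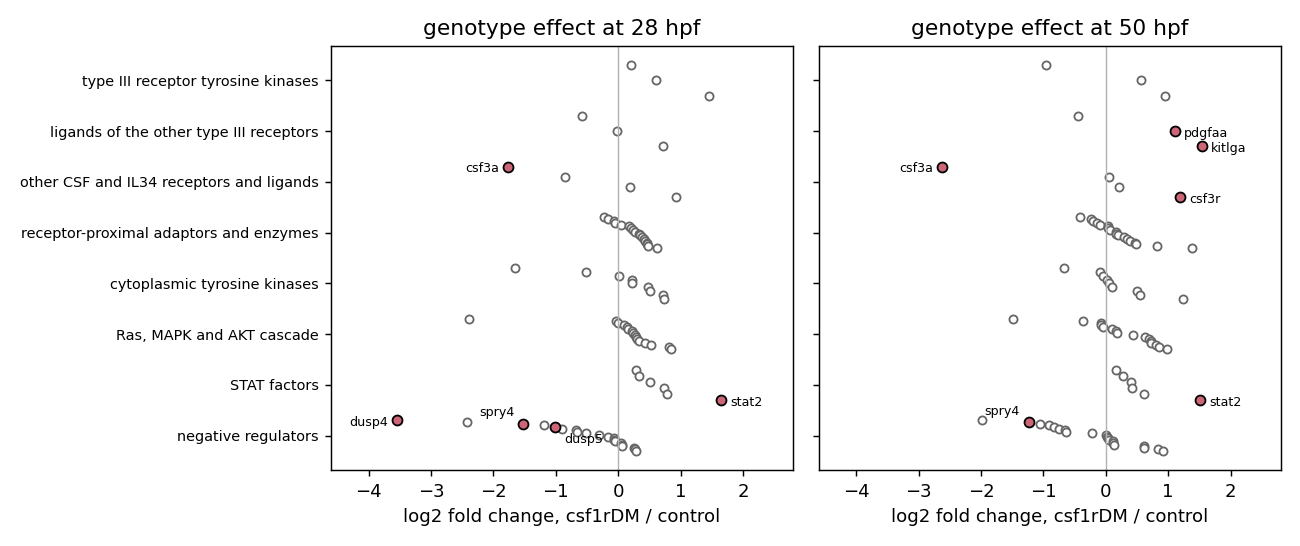
Log2 fold change of csf1rDM over control at 28 hpf (left) and 50 hpf (right) for each tested gene of 8 lists, 1 point a gene, spread vertically by rank within a list. Filled and named points passed an adjusted p under 0.01 and an absolute log2 fold change above 1. At 28 hpf 4 of the 5 named genes lie to the left, and at 50 hpf 4 of the 6 lie to the right.

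Among the other type III receptors, kita and flt3 lay under the filter, with at most 22 and 16 counts in a library. The genes kitb, pdgfra and pdgfrb were tested, none was called in any comparison, and they held 0 to 24, 0 to 125 and 1 to 44 counts per library. Csf1r genes were thus the only members of the family on this list with more than 3 counts in every library. Among the ligands of these receptors, kitlgb, a gene of a Kit ligand, held 48 counts in csf1rDM 50 hpf replicate 1 and at most 4 elsewhere, and pdgfbb was also under the filter.

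The PDGF receptor ligand gene pdgfaa was at 43.3, 44.5 and 48.2 CPM in control against at 98.5, 106 and 87.9 CPM in csf1rDM at 50 hpf. These groups were far apart, and pdgfaa was 2.15-fold higher in csf1rDM (SE 0.107 on the log2 scale, edgeR adjusted p = 2.41e-05). At 28 hpf it was at 27.6, 31.9 and 30.4 CPM in control and 44.9, 52.7 and 50.3 CPM in csf1rDM, a log2 difference of 0.72 that lay under the fold limit (edgeR adjusted p = 0.000601). The related gene pdgfba was at 53 ± 1.01 CPM in control against 52.1 ± 2.55 CPM in csf1rDM at 28 hpf, and at 96.6 ± 9.31 CPM and 71.1 ± 6.61 CPM at 50 hpf (SD, n = 3 each), where its log2 difference of -0.44 was not called (edgeR adjusted p = 0.00797). The Kit ligand gene kitlga was at 7.94, 6.51 and 6.97 CPM in control against 19.7, 18.9 and 23.5 CPM in csf1rDM at 50 hpf, a log2 rise of 1.54 (SE 0.347, edgeR adjusted p = 0.00752). At 28 hpf the genotypes overlapped for kitlga, at 6.97, 8.64 and 6.95 CPM in control and 1.82, 4.86 and 7.99 CPM in csf1rDM. The kitlga call was held in only 2 of the 12 refits with a library removed, where the log2 difference stayed between 1.42 and 1.60 and the edgeR adjusted p rose as high as 0.0421, and it was lost with the replicate number as a block (log2 difference 1.52, edgeR adjusted p = 0.0126). The keratinocyte marker sum, in which krt8 had by far the highest mean level, was also higher in csf1rDM at 50 hpf. It was at 417 to 524 CPM against 199 to 294 CPM in control, and its part in these ligand levels was not tested.

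The granulocyte colony stimulating factor genes showed a ligand and a receptor moving in opposite directions. The ligand gene csf3a was at 26, 23.8 and 21.7 CPM in control against 8.01, 5.06 and 7.99 CPM in csf1rDM at 28 hpf, a log2 difference of -1.77 (SE 0.235, edgeR adjusted p = 0.00026). At 50 hpf it was at 21.2, 27.7 and 18.9 CPM in control and 4.85, 2.97 and 3.19 CPM in csf1rDM (log2 fold change -2.63, edgeR adjusted p = 1.89e-05). The groups did not overlap at either stage, and the call held as each library was left out. The receptor gene csf3r was at 116, 74 and 78.7 CPM in control against 170, 182 and 259 CPM in csf1rDM at 50 hpf, a log2 rise of 1.19 (edgeR adjusted p = 0.00073). Without csf1rDM 50 hpf replicate 3 the rise was 0.96 and under the fold limit. At 28 hpf csf3r was at 102 ± 1.24 CPM in control and 196 ± 27.3 CPM in csf1rDM (SD, n = 3 each), a log2 difference of 0.93 that was not called (edgeR adjusted p = 0.00371). The csf3r gene is also 1 of the macrophage markers, whose sum was higher in csf1rDM at both stages. The ligand gene csf3b was not called, and the receptor gene csf2rb, of the shared beta chain, was at 79.1 ± 1.75 CPM and 90.4 ± 5.79 CPM at 28 hpf and at 139 ± 14.96 CPM and 161 ± 21.1 CPM at 50 hpf in control and csf1rDM (SD, n = 3 each), also not called.

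Inside the cell, 0 of 18 adaptors and enzymes, 0 of 9 cytoplasmic tyrosine kinases and 0 of 16 genes of the Ras, MAPK and AKT cascade were called between genotypes at either stage. Of all tested genes 4.08% were called at 28 hpf and 5.33% at 50 hpf. Shares of this size leave little room for a call in lists so short, so the counts of 0 do not show that these genes were unchanged. Without the fold limit and at an adjusted p of 0.05, the counts were 7, 2 and 2 at 28 hpf and 3, 2 and 5 at 50 hpf, beside 20.5% and 19.9% of all tested genes. At an unadjusted p under 0.05 they were 10, 3 and 4 at 28 hpf and 7, 2 and 7 at 50 hpf, beside 33.5% and 32.1%, and DESeq2 with the fold limit called 1 gene of the cascade at 28 hpf. Their median log2 differences were 0.31, 0.23 and 0.25 at 28 hpf and 0.16, 0.06 and 0.30 at 50 hpf, where the median of all tested genes was 0.02 and -0.02. The member of highest mean level was grb2b among the adaptors, which link receptors to Ras, at 303 ± 1.93 CPM in control at 28 hpf against 259 ± 24.6 CPM in csf1rDM (SD, n = 3 each). The myeloid Src-family kinase gene hck was at 362 ± 13.9 CPM in control against 503 ± 65.2 CPM in csf1rDM at 28 hpf, and the ERK kinase gene mapk3 was at 279 ± 2.3 CPM and 298 ± 25.5 CPM (SD, n = 3 each). At both stages grb2b, hck and mapk3 stayed under the fold limit of the rule. Each of these lists had a member beyond that limit at 50 hpf that edgeR did not call. The log2 differences furthest from 0 were 1.39 among the adaptors, 1.25 among the kinases and -1.49 in the cascade.

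Among 6 STAT factors, which carry cytokine signals to the nucleus, stat2 was called at both stages. It was at 8.47, 8.08 and 8.44 CPM in control against 24.4, 18.4 and 35.9 CPM in csf1rDM at 28 hpf (log2 fold change 1.66), and at 9.13, 8.23 and 6.59 CPM in control against 20.6, 20.9 and 26.8 CPM in csf1rDM at 50 hpf (1.51). Every mutant library lay above every control library of its stage, and the call held as each library was left out, with edgeR adjusted p up to 0.00344 and 0.00543. STAT2 acts with interferon receptors and is not a classical mediator of Csf1r signals. The most abundant member, stat6, which acts in interleukin 4 signalling, was at 94.5 ± 1.35 CPM in control against 158 ± 9.36 CPM in csf1rDM at 28 hpf, and at 88 ± 6.56 CPM and 135 ± 12.8 CPM at 50 hpf (SD, n = 3 each). Its log2 differences of 0.74 and 0.62 lay under the fold limit.

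Of 20 negative regulators, 3 were lower in csf1rDM at 28 hpf and 1 at 50 hpf, beside 2.23% and 3.04% of all tested genes, and 0 were called higher. All 3, spry4, dusp4 and dusp5, encode feedback inhibitors of ERK signalling. Some others of this kind on the list, named after their values were seen, were not called at either stage. Their log2 differences at 28 and 50 hpf were -0.31 and -0.22 for dusp6, -1.18 and -0.65 for spry1 and -0.07 and 0.62 for spry2. They were -0.90 and -0.91 for spred1, -0.66 and -0.75 for spred2a and -0.51 and -1.06 for spred2b. The list also held dusp1 and dusp2, which were tested and not called between genotypes, and whose differences are not given here. The spry4 level was 17.4, 15.5 and 16.3 CPM in control against 7.16, 5.13 and 5.06 CPM in csf1rDM at 28 hpf, a log2 difference of -1.52. At 50 hpf it was 35.1, 49.9 and 35.6 CPM in control and 13.7, 20.3 and 17.3 CPM in csf1rDM (log2 fold change -1.23). The genotypes did not overlap at either stage, and spry4 was called in each of the 12 refits with a library removed, with edgeR adjusted p up to 0.00275 at 28 hpf and 0.00518 at 50 hpf.

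For dusp4 the counts were 235, 218 and 249 in control and 10, 43 and 0 in csf1rDM at 28 hpf, and the log2 difference was -3.55. The mutant libraries were all far below the controls but differed widely among themselves, and the call held in 4 of 12 refits with a library removed (edgeR adjusted p up to 0.0267). At 50 hpf dusp4 held 84, 158 and 71 counts in control and 4, 30 and 21 in csf1rDM, again apart, with a log2 difference of -1.99 that was not called. The dusp5 level was 62.5, 74.5 and 73.3 CPM in control against 34.8, 38.4 and 30.7 CPM in csf1rDM at 28 hpf (log2 fold change -1.02). That call fell under the fold limit without control 28 hpf replicate 2 (-0.97), without replicate 3 (-0.99) and with upper quartile scaling (-0.997), and at 50 hpf the difference of -0.65 was not called. The most abundant negative regulator, the phosphatase gene ptpn6, was at 2406 ± 66.1 CPM and 2319 ± 93.4 CPM at 28 hpf and at 1448 ± 69.3 CPM and 1572 ± 83.9 CPM at 50 hpf, in control and csf1rDM respectively (SD, n = 3 each), and was not called between genotypes.

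The genes whose levels over the 12 libraries were most like those of each receptor were named as a description, among 7253 genes with a symbol of their own and a mean of at least 10 CPM. The correlations are of log2 CPM, the libraries fall into 4 groups, and points share library and depth, so that no test is attached. For csf1ra these included PPEF2 (Pearson r = 0.97), KIF21B (0.96), PLEKHH3 (0.96) and TNFRSF21 (0.96), spelled as in the symbol table. For csf1rb they were MAFA (0.96), slc12a7a (0.96), ifngr1l (0.95), APLP2 (0.95) and nxf1b (0.95). No gene named for csf1ra was also named for csf1rb. Between csf1ra and csf1rb r was 0.70, which put csf1rb at rank 961 in likeness to csf1ra. MAFA, a gene of a large Maf transcription factor, was at 41.1 ± 7.5 CPM in control against 15.5 ± 4.15 CPM in csf1rDM at 28 hpf, and at 265 ± 42.3 CPM and 108 ± 29.6 CPM at 50 hpf (SD, n = 3 each). It was lower in the mutants and higher at the later stage. MAFA was chosen for its likeness to csf1rb over these same libraries, so this shared pattern is not a separate finding.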

How the data were processed

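The authors dissociated pooled embryos, sorted mpeg-GFP+ cells, amplified cDNA with a SMART-seq v4 kit, sequenced read pairs and mapped them with STAR to GRCz10. The values deposited by the authors are unnormalised whole-number counts for each Ensembl gene ID. The submitters' processing notes name CASAVA 1.8, cutadapt, STAR 2.5.4b, Cufflinks 2.2.1, HTSeq 0.11.0 and edgeR, without roles. The strand setting and annotation version were not given in the sources used here, so reads shared by close paralogues, overlapping genes or antisense genes are uncertain. Totals were 8641139 to 20261650 counts. There were 0 unused count columns and 0 rows without a gene. Symbols came from a table of Ensembl gene names, which gave one for 27000 IDs (76.9%). No genome, transcript or protein sequence entered the work, and positions are left out because the gene table at hand is of another assembly.

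Counts were analysed in R 4.3.3 with edgeR 4.0.16: filterByExpr by group, TMM, and the quasi-likelihood F test on all 12 libraries with group means as the only terms. Comparisons with a group in common share that group's libraries. Expression is TMM-scaled CPM, mean ± SD. Paralogue ratios were log2((b + 0.5)/(a + 0.5)), tested with limma 3.58.1 with a trend, over the 292 of 673 pairs of symbols with both genes tested. Exact permutation tests were two-sided. Each fit was first tested on simulated data. Alternatives were DESeq2 1.42.0, other scalings, filters, pseudocounts and thresholds, a replicate block, a fit of the 6 libraries compared, and leaving out each library. Of 116 symbols in 8 pathway lists 86 were matched, and of 138 in 11 marker lists 106. The 5 genes, the lists and the tests were chosen with earlier results of these data known. Named by rule were the 5 genes, all members of the lists of type III receptors and of their ligands, the called members and the most abundant member of each other list, and the 5 genes most like each receptor, of which 1 is not reported here. Groups and replicate numbers came from the sample labels. Replicates were never alike to within sampling noise (chi-square per degree of freedom 5.17 to 24.6), so all were counted.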

Additional observations from a re-analysis of the deposited data

How the results depend on the processing

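The ratio of csf1rb to csf1ra was lower in csf1rDM under every alternative tried. Its call at 50 hpf was lost in limma with no trend (-0.72, adjusted p = 0.0567) and in edgeR's diffSpliceDGE (-0.75, adjusted p = 0.0778), and so was its rise with stage in csf1rDM (0.67, adjusted p = 0.0629, and 0.66, adjusted p = 0.0732); the cause was not tested. As each library was left out it ranged from -0.84 to -0.54 at 50 hpf. The csf1rb interaction turned to 0.0076 with DESeq2 size factors and 0.0079 in DESeq2, and ranged from -0.20 to 0.19 over left-out libraries. With an adjusted p under 0.05 and no fold limit, csf1rb passed between genotypes (-0.78 and -0.83) and csf1ra between stages (0.84 and 0.49). Left-out libraries gave csf1rb -1.01 to -0.61 for genotype at 50 hpf, 0.91 to 1.31 for stage in control and 0.97 to 1.28 in csf1rDM, and -0.30 to -0.17 for the genotype difference of the summed receptors.

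Most csf1a and csf1b values and some il34 values hung on single libraries. For csf1a the ranges were 0.34 to 2.39 and -0.29 to 2.71 for genotype at 28 and 50 hpf, -1.72 to 1.51 and -1.18 to 0.71 for stage in control and csf1rDM, and -1.24 to 1.95 for the interaction. For csf1b they were -1.55 to 2.04 and -6.62 to 0.63 for genotype at 28 and 50 hpf, 0.46 to 2.87 and -5.80 to 2.71 for stage in control and csf1rDM and -7.15 to 1.37 for the interaction. The values of -6.62, -5.80 and -7.15 came without csf1rDM 50 hpf replicate 1, which leaves that group with all counts at 0. For il34 they were -2.68 to -1.54 and -0.84 to 0.23 for genotype at 28 and 50 hpf. They were -2.46 to -1.56 and -0.86 to 0.20 for stage in control and csf1rDM, and 1.17 to 2.35 for the interaction. The il34 values for genotype at 28 hpf, stage in control and the interaction thus kept their sign, and were not called in any of these refits. The fit of 6 control libraries gave -2.06 for stage. Detection of csf1a fell to 6 libraries at 10 or more counts, and that of csf1b rose to 8 at 1 or more. No ligand gave a value where at least 10 counts in every library were required.

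Without the fold limit, at an adjusted p under 0.05, the lists counted 25 genes at 28 hpf (1 ligand of other type III receptors, 2 CSF genes, 7 adaptors, 2 kinases, 2 cascade genes, 4 STAT factors, 7 negative regulators), 22 at 50 hpf (3 ligands of other type III receptors, 2 CSF genes, 3 adaptors, 2 kinases, 5 cascade genes, 2 STAT factors, 5 negative regulators), and 25 and 34 between stages in control and csf1rDM, beside 20.5, 19.9, 23.4 and 27.6% of all tested genes. DESeq2 called 1 cascade gene at 28 hpf, 2 negative regulators at 50 hpf, as did the filter of 10 counts, and 1 interaction. The 6 libraries compared gave 5 genes between stages in csf1rDM. Over left-out libraries the counts were 3 to 6 for all lists at 28 hpf, 2 to 5 between stages in control, 1 to 4 and 1 to 2 for negative regulators at 28 and 50 hpf, 0 to 1 for the cascade at each stage, 1 to 2 for ligands of other type III receptors and 1 to 2 for CSF genes at 50 hpf.

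Pairing by replicate number was not clear: same-numbered libraries of different groups had correlations of their deviations between -0.36 and 0.17, over 0.1 in 4 of 18. Those of different number lay between -0.24 and 0.28, over 0.1 in 4 of 36. The medians were 0.03 and -0.01. A batch shared by replicate number was fitted as a block, but its own effect was not tested. With the replicate block csf1b at 50 hpf turned to 0.019, csf1a between stages in csf1rDM to -0.28, and 1 ligand of other type III receptors was called at 50 hpf, kitlga being lost. The block moved the count of all genes called for the interaction from 26 to 16, and the other counts by less than 1.5 times.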
